A study of Homo sapiens with 4 samples.

Results

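The 10 heat shock genes HSPA6, HSPA1A, HSPA1B, HSPA8, DNAJB1, HSPH1, HSP90AA1, HSPB1, CRYAB and HSPD1 were taken by symbol, and each was found once among the 33540 features of the Ishikawa matrix and once among the 33538 of the T-47D matrix. Single-cell RNA-seq (10x Genomics) had been run on Ishikawa, a line from an endometrial adenocarcinoma, and T-47D, written T47D in the labels, a line from a mammary ductal carcinoma. Cells of each line received DMSO vehicle, called 0 h, or 10 nM 17β-estradiol (E2) for 2, 4 or 8 h, after 5 days in hormone-depleted medium, which the vehicle cells shared. The 4 cultures of a line were tagged with MULTI-seq barcodes, mixed and captured together. Once cells outside the study's quality limits were removed, 776, 1480, 892 and 1465 Ishikawa cells and 1525, 1207, 1341 and 553 T-47D cells remained at 0, 2, 4 and 8 h. Each line and time point was 1 culture, so no comparison between time points or lines has a replicate. The GFP classes were compared within each of the 4 Ishikawa cultures, which differed in treatment, and their spread is given as an SD. No test was run, so no p-value is given. Intervals in parentheses are 95% intervals that cover the error of counting UMIs only.

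The Ishikawa matrix also held a feature for green fluorescent protein (GFP). Where the GFP came from is not given in the sources used here. GFP made up a median of 0.566% of a cell's UMIs and at most 73.3%, so the kept Ishikawa cells were placed by this share into 2830 cells under 1%, 1303 cells from 1 to 10% and 480 cells at 10% or more. The highest class held 97, 126, 94 and 163 cells at 0, 2, 4 and 8 h, which was 12.5%, 8.51%, 10.5% and 11.1% of the cells kept. A second reporter feature, tdTomato, gave 2109 UMIs in the class with 10% or more GFP, where GFP gave 2626957. In the GFP classes, levels are counts scaled to a common total (CPM) of UMIs other than those of GFP and tdTomato, so that a GFP-rich cell does not show lower CPM because GFP fills its library. Over lines and time points, levels are CPM of all UMIs. A gene was called changed when its mean CPM over the pools compared was at least 10 and its log2(CPM + 1) differed by at least 1.5-fold, in the mean over time points for GFP classes.

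The pools of line and time point were deep and both lines carried their epithelial markers. Summed UMIs ran from 12927799 to 33175309 per line and time point. The pools with 10% or more GFP were shallower, at 1300929 to 2423159 UMIs other than reporters. All 5 epithelial markers passed the minimum in both lines, while none of the immune or endothelial markers did, with summed levels of at most 2.43 CPM. Of 5 fibroblast markers, 1 passed in Ishikawa, COL1A1. The endometrial markers summed to 619 to 760 CPM in Ishikawa and to at most 1.59 CPM in T-47D, where PAX8, EMX2, HOXA10 and SOX17 were at 0. Breast luminal markers summed to 3845 to 4421 CPM in T-47D and 31.0 to 43.1 CPM in Ishikawa. The matrices shared 80 cell barcodes, 5 of them among kept cells.

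Heat shock proteins are chaperones that hold, refold or help to degrade misfolded proteins. Many of their genes are switched on by the transcription factor HSF1, which forms trimers when unfolded proteins accumulate and binds heat shock elements, inverted repeats built from the unit nGAAn. HSP70 chaperones work with J-domain partners and nucleotide exchange factors, HSP90 matures client proteins that include steroid receptors, small heat shock proteins hold unfolded clients without using ATP, and chaperonins fold proteins inside a closed chamber. Each class has members that are always present and members made mainly under stress, and the 10 genes span both kinds.

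The promoter sequence of 4 of them is shown because these genes ranged from among the most to among the least different between the GFP classes. The RefSeq promoter table (GRCh38.p14) held 13 windows for 9 of the 10 genes. Both forms of a pair of adjoining heat shock units were searched in the 250 bases before each start, GAANNTTC and TTCNNGAA, where N is any base. Each reads the same on both strands, and the forms can overlap by 3 bases. The printed runs are the last 150 bases before the annotated start, 5′ to 3′ on the gene's strand, with matches in capitals. HSPA6 is at chr1:161524390-161524539 on the plus strand, HSPA1B at chr6:31827588-31827737 on the plus strand, DNAJB1 (the second of its 3 starts) at chr19:14518398-14518547 on the minus strand and HSPA8 at chr11:123062137-123062286 on the minus strand.
HSPA6: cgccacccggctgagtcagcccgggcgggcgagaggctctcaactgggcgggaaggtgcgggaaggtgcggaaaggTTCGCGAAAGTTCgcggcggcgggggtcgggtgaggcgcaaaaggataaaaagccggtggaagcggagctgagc
HSPA1B: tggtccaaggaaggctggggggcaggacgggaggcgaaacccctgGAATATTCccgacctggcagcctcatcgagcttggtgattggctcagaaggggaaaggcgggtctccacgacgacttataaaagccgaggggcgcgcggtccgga
DNAJB1: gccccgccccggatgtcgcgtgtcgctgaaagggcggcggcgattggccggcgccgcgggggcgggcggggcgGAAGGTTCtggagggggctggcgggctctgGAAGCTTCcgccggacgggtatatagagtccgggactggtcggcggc
HSPA8: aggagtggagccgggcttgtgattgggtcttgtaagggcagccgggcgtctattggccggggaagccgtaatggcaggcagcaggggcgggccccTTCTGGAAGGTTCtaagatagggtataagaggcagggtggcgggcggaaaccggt

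One form or the other lay in 8 of the 13 windows of these genes, against 11.6% of all 35116 promoter windows. GAANNTTC alone was in 5.78% and TTCNNGAA in 6.62% of all windows. The HSPA6 window held both forms overlapping, with first bases 74 and 69 before the start, plus a GAANNTTC 180 before it. HSPA8 held both forms overlapping at 55 and 50 before its start, and again at 230 and 225. HSPA1B held a match at 105 before its start, and the DNAJB1 window shown held matches at 77 and 47. HSPH1 held neither form in its single window.

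Most of the heat shock genes were higher in GFP-rich cells. In cells with 10% or more GFP, 7 of the 9 genes that passed the minimum were higher than in cells under 1% GFP and 0 were lower, while 19.7% of all 8306 genes passing it were higher and 6.79% were lower. HSPA6 passed the minimum only through the GFP-rich class, so its call was fixed by that filter. With the minimum set on cells under 1% GFP alone, an alternative chosen after seeing the data, 6 of 8 genes were higher and 0 lower, against 15.7% higher and 8.23% lower of all 7900 genes. With UMIs other than reporters as the total, all 10 genes, HSPA1A under the minimum among them, were higher at 4 of 4 time points. The share of all genes that were so was not counted. The median log2 difference was 2.40 over the 9 genes, against 0.13 over all genes, and 1.91 over the 8, against 0.08 over the 7900. The balance of all genes hung on the scaling: 74.4% of calls were higher with UMIs other than reporters as the total, 15.9% with all UMIs, 35.5% with trimmed-mean (TMM) factors and 44.3% with factors from the median of ratios, with medians over all genes of -0.33, -0.14 and -0.08 for the last 3. Of the 7 genes, 6 remained past 1.5-fold under every one of these scalings. HSP90AA1 did not, at 0.34 with all UMIs and 0.54 with TMM factors.

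**Figure D1:**
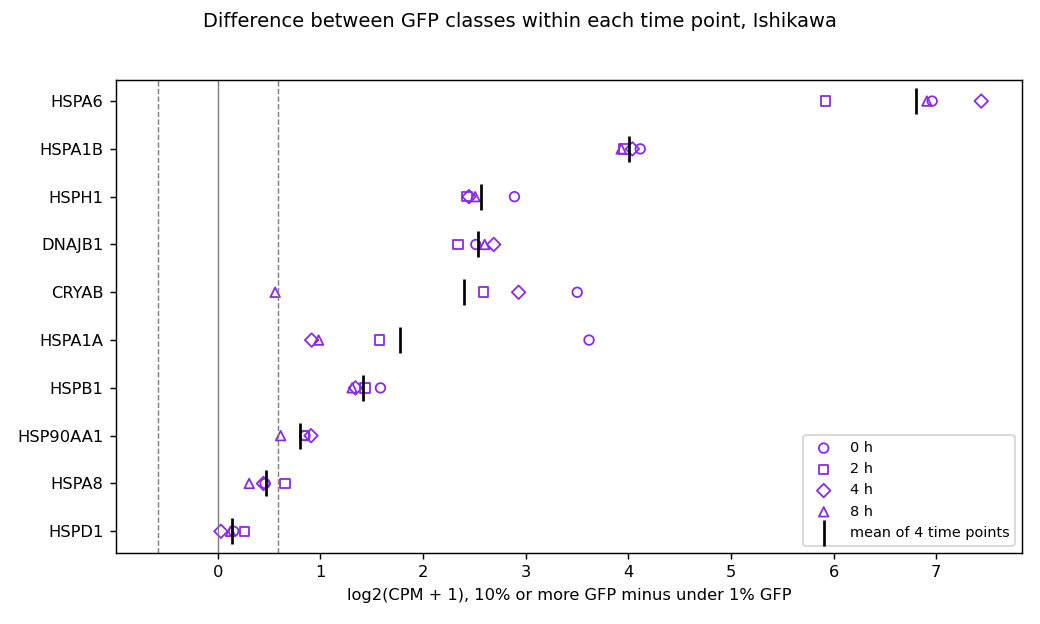
Log2(CPM + 1) of each gene in Ishikawa cells with 10% or more GFP minus cells under 1% GFP, with 1 open symbol per time point, the mean as a black bar, and dashed lines at 1.5-fold. HSPA6 sits highest with a mean of 6.81, CRYAB spreads from 0.56 at 8 h to 3.50 at 0 h, and HSPD1 lies near 0, below it under the other scalings.

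HSPA6 encodes a stress-inducible HSP70 that most unstressed cells barely express. In cells with 10% or more GFP it stood at 331, 113, 317 and 199 CPM at 0, 2, 4 and 8 h. In cells under 1% GFP it stood at 1.67, 0.879, 0.834 and 0.664 CPM. The lower class rested on 15, 17, 10 and 13 UMIs. The classes were far apart at every time point, with ratios of UMIs counted of 198 (119 to 358), 128 (78.2 to 225), 380 (205 to 798) and 300 (174 to 567). Its mean log2 difference was 6.81 ± 0.64 (SD, n = 4 time points), which ranked 1 of 8306 genes. It was among those genes only through the GFP-rich class, so the rank is not support apart from that filter.

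Few cells carried these transcripts. Of all HSPA6 UMIs in kept Ishikawa cells, 93.8% came from the 10.4% of cells with 10% or more GFP, and the 46 cells with most of them, 1% of the cells, held 80.8%. Even among GFP-rich cells HSPA6 was found in 29, 30, 29 and 44 cells at 0, 2, 4 and 8 h. After each cell was thinned to 5000 UMIs other than reporters, 25.8%, 15.1%, 21.3% and 18.4% of GFP-rich cells had an HSPA6 UMI, against 1.35%, 0.425%, 0.555% and 0.222% of cells under 1% GFP. Without thinning these were 29.9%, 23.8%, 30.9% and 27.0% against 2.69%, 1.70%, 1.66% and 1.33%, at median depths of 13732 and 20934 other UMIs. The 670 Ishikawa barcodes under 2000 UMIs held 34 HSPA6 UMIs, or 47.6 CPM (32.9 to 66.5), and 21 of the 34 lay in the 54 barcodes with 10% or more GFP. The 670 barcodes also held HSPA1B at 88.1 CPM, DNAJB1 at 122 CPM and HSPH1 at 61.6 CPM. These 4 levels are CPM of all UMIs, and all were above the CPM of other UMIs in cells under 1% GFP. The part of RNA from outside the cell in the levels under 1% GFP was not tested, so the ratios compare UMIs counted and the HSPA6 level there is not read as a change over time.

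HSPA1B and HSPA1A encode nearly identical inducible HSP70 proteins from neighbouring genes on chromosome 6. Reads of one can be assigned to the other, so the split between them is uncertain. HSPA1B stood at 615, 484, 471 and 491 CPM in GFP-rich cells and at 34.5, 30.2, 27.7 and 31.3 CPM in cells under 1% GFP. The ratio was close to steady over the time points, lowest at 8 h (15.7, interval 14.2 to 17.4) and highest at 0 h (17.8, interval 15.6 to 20.4), and the mean log2 difference of 4.01 ± 0.08 ranked 3 of 8306. GFP-rich cells held 53.6% of all HSPA1B UMIs. HSPA1A fell short of the minimum, with 36, 11, 5 and 8 UMIs in GFP-rich cells, and 26 of the 36 at 0 h were in 1 cell.

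The cochaperones of HSP70 followed. DNAJB1, a J-domain protein that delivers clients to HSP70, stood at 452, 339, 427 and 427 CPM in GFP-rich cells and at 78.2, 66.1, 65.3 and 69.6 CPM in cells under 1% GFP, a mean log2 difference of 2.54 ± 0.15. HSPH1, a nucleotide exchange factor of HSP70, stood at 180, 125, 136 and 165 CPM against 23.4, 22.4, 24.1 and 28.2 CPM, a mean log2 difference of 2.57 ± 0.22. The ranges of both genes were well separated between the classes, though the share of all genes with separate ranges was not counted. DNAJB1 and HSPH1 ranked 14 and 13 of 8306. Constitutive HSPA8, the HSP70 of unstressed cells, differed far less, with 1271, 1447, 1311 and 1355 CPM against 922, 917, 962 and 1095 CPM. Its mean log2 difference of 0.47 ± 0.14 was short of 1.5-fold and was 0.01 with all UMIs as the total.

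Small heat shock proteins split. HSPB1 stood at 1837, 1925, 2148 and 1948 CPM in GFP-rich cells and at 611, 710, 846 and 784 CPM in cells under 1% GFP, with a mean log2 difference of 1.42 ± 0.12. CRYAB stood at 131, 97.0, 91.9 and 13.2 CPM against 10.7, 15.3, 11.2 and 8.63 CPM. The CRYAB classes were wide apart at 0, 2 and 4 h, and near each other at 8 h, where the ratio was 1.53 (1.01 to 2.24). Its mean log2 difference of 2.40 ± 1.28 was 3.01 without 8 h. It rested on few cells. Without the 5 cells richest in CRYAB in each pool, an alternative chosen after seeing the data, it was 0.52, short of 1.5-fold. The share of GFP-rich cells with a CRYAB UMI after thinning ran from 3.07% at 8 h to 12.4% at 0 h.

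HSP90AA1, the stress-responsive HSP90, was abundant in every class, at 5425, 5472, 5268 and 4854 CPM in GFP-rich cells and 3008, 3041, 2803 and 3170 CPM in cells under 1% GFP. The classes did not overlap over the time points, though the share of all genes without overlap was not counted. The mean log2 difference was 0.81 ± 0.13. It was 0.56 without the 5 cells richest in HSP90AA1 in each pool. HSPD1, the chaperonin of the mitochondrial matrix, stood at 734, 800, 759 and 902 CPM against 658, 666, 742 and 826 CPM, with overlapping ranges and a mean log2 difference of 0.14 ± 0.10. Its sign was negative under the other 3 scalings, from -0.32 with all UMIs to -0.06 with median-of-ratios factors.

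The order by mean log2 difference was HSPA6, HSPA1B, HSPH1, DNAJB1, CRYAB, HSPB1, HSP90AA1, HSPA8 and HSPD1. HSPH1 and DNAJB1 did not differ beyond their spread over time points, and the spread of CRYAB covered HSPH1, DNAJB1 and HSPB1.

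Most of the difference lay above 10% GFP. In cells from 1 to 10% GFP, 1 of the 8 genes past the minimum was higher than under 1% GFP, where 1.95% of all 7986 genes were. That gene was HSPA1B, with a log2 difference of 0.62 ± 0.23. HSPA6 gave 2.09, 1.68, 3.46 and 1.04 CPM there, within counting error of the cells under 1% GFP at 0, 2 and 8 h. CRYAB was higher at 4 h, at 34.8 against 11.2 CPM, and within counting error at the other times. HSPB1 was higher at 4 of 4 time points, by a mean of 0.41 ± 0.07, short of 1.5-fold. HSPA8 and HSPD1 were lower at 4 of 4 time points, by means of -0.19 and -0.24, short of 1.5-fold. For HSPA8 the 2 h value was within counting error, with a ratio of 0.995 (0.968 to 1.02).

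Finer bins of GFP share gave the same picture for HSPA6. HSPA6 stayed between 0.658 and 1.47 CPM in the 5 bins up to 5% GFP, then stood at 5.06 CPM at 5 to 10%, 25.5 CPM at 10 to 20%, 259.9 CPM at 20 to 40% and 815 CPM at 40% or more. HSPA1B went from 32.4 CPM in the lowest bin to 1251 CPM in the highest, DNAJB1 from 71.6 to 982 CPM and HSPH1 from 27.2 to 355 CPM. In the highest bin, of 99 cells, 52.5% (42.2 to 62.7) had an HSPA6 UMI after thinning, 70.7% an HSPA1B UMI, 79.8% a DNAJB1 UMI and 71.7% an HSPH1 UMI. HSPB1 was already higher below 10% GFP, at 722 CPM under 0.25%, 898 CPM at 1 to 2% and 1141 CPM at 5 to 10%. It reached 2920 CPM at 40% or more. HSPA8, HSP90AA1 and HSPD1 did not climb from the start. HSPD1 went from 772 CPM under 0.25% GFP to 554 CPM at 5 to 10% and reached 1119 CPM at 40% or more. CRYAB was no higher at 40% or more (89.1 CPM, 72.1 to 109) than at 20 to 40% (100.3 CPM, 87.9 to 114).

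**Figure D2:**
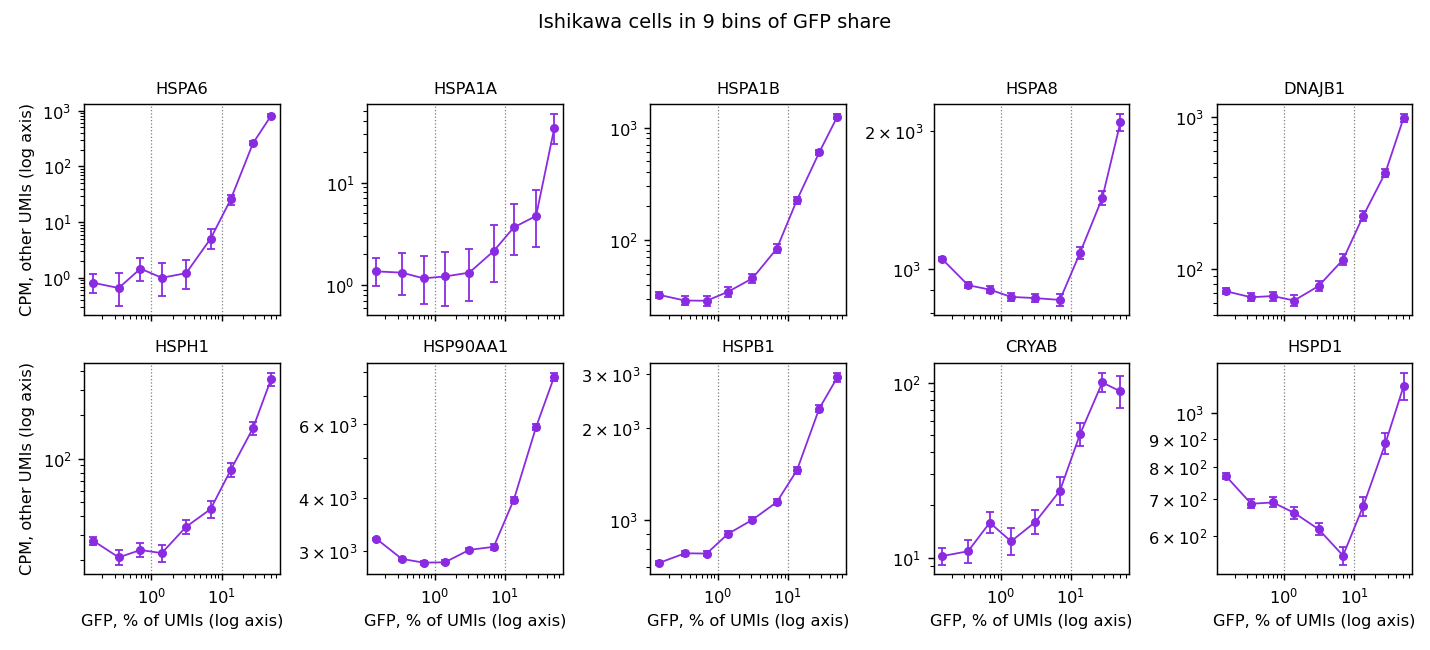
CPM of UMIs other than reporters (log axis) in 9 bins of the GFP share of a cell's UMIs (log axis, at the median of each bin) in kept Ishikawa cells of all time points, with 95% Poisson intervals and dotted lines at 1% and 10% GFP. HSPA6 is flat near 1 CPM up to 5% GFP and reaches 815 CPM in the top bin, while HSPD1 first declines from 772 to 554 CPM.

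Among GFP-rich cells many pairs of the genes varied together. Over the 480 cells, thinned to 5000 other UMIs, the median Spearman correlation of the 45 pairs of genes was 0.36 and 26 pairs were above 0.3, the highest being HSPA1B with HSPA8 at 0.68. No pair with HSPA1A was above 0.14 and none with CRYAB was above 0.19. Over the 2830 cells under 1% GFP, thinned alike, the median was 0.0052, with 0 pairs above 0.3. Over the 4626 T-47D cells, thinned to 10000 UMIs and so to another depth, the median was 0.027, with 0 pairs above 0.3. Cells of a class share a library, and sparse genes can reach only low values, so these are descriptions. Pairs of other genes were not correlated in these cells, so the counts are not read as particular to the heat shock genes. Within the GFP-rich class the correlation with the GFP share itself was highest for HSPA6, at 0.42, and lowest for CRYAB, at 0.030.

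Over the 12 pools of class by time point, DNAJB1 and HSPA1B were among the 3 genes most like HSPA6 in Pearson correlation, at 0.991 and 0.987 among 8224 genes. The 5 most similar genes outside the set were ANKRD13C, TBC1D15, MT-ND1, PLRG1 and DHX29, from 0.988 to 0.983. Their differences were smaller in size, with ANKRD13C going from 15.2 CPM under 1% GFP to 24.8 CPM at 10% or more and TBC1D15 from 39.8 to 75.5 CPM. The 12 pools share 4 cultures and 3 classes, so a high correlation mainly reads the contrast between classes.

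Other stress genes were counted in the same comparison from lists written for this work, to be read against the 19.7% of all genes that were higher and the 6.79% that were lower. With TMM factors these shares were 9.85% and 17.9%, with factors from the median of ratios 11.7% and 14.7%, and with all UMIs 5.61% and 29.7%. Among 33 other cytosolic chaperones and cochaperones, 9 were higher, or 27.3%, and 0 lower, with a median of 0.30. The highest were DNAJB4 (2.21) and DNAJB2 (1.81), both J-domain proteins, and the lowest was FKBP5 (-0.54), an HSP90 cochaperone of steroid receptors. With TMM factors 5 were higher and 2 lower, and with all UMIs 4 and 4. Of 5 heat shock factors and regulators, 1 was higher, HSF2, a relative of HSF1, at 0.94, from 12.9 to 26.7 CPM. With all UMIs 0 of the 5 were higher and 2 lower, and with TMM factors 1 was higher and 1 lower. HSF1 itself, named after its value was seen, differed by -0.14. Of 9 mitochondrial chaperones 0 were higher and 1 was lower, TRAP1, at -0.89. Of 27 proteasome genes 0 were called, with a median of -0.20, while 7 were lower with TMM factors and 17 with all UMIs.

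Of 11 genes of the integrated stress response, 6 were higher under each of the 4 scalings, and 1 was lower with all UMIs. The highest were the transcription factor ATF3 (4.17, from 16.5 to 309 CPM) and PPP1R15A (2.95), which restores translation after stress, while PHGDH (-0.23) and PSAT1 (0.19), enzymes of serine synthesis, were lowest of the list. Of 18 genes of the unfolded protein response of the endoplasmic reticulum, 2 were higher, HERPUD1 (1.22) and DNAJB9 (1.05), while 5 were lower with TMM factors and 6 with all UMIs. Among 13 immediate-early genes 11 were higher, led by ATF3 again and DUSP1 (2.73), a phosphatase of MAP kinases, and 7 to 9 were higher under the other scalings. With the minimum set on cells under 1% GFP, which DUSP1 and FOSL1, a partner of JUN, did not meet at 4.52 and 3.57 CPM, 9 of 11 immediate-early, 5 of 10 integrated stress response and 0 of 4 interferon genes were higher. Of 10 oxidative stress genes 2 were higher and 1 lower. With all UMIs 0 were higher and 4 lower, with TMM factors 0 and 1, and with factors from the median of ratios 1 and 1. Of 5 interferon genes 1 was higher, IFIT2, at 1.40 ± 2.65 and higher at 3 of 4 time points. IFIT2, at 2.48 CPM under 1% GFP, passed the minimum only through the GFP-rich class. Genes of G2 and mitosis were lower, 18 of 20, with a median of -1.13, and 4 of 20 S phase genes were lower, led by RRM2 (-1.29), while 8 to 16 were lower under the other scalings. The 5 highest genes outside the set were ATF3, MAFF (3.70), GADD45B (3.09), PPP1R15A and HEY1 (2.90), and the 5 lowest were KRT5 (-2.53), AKR1C2 (-2.08), PLK1 (-2.06), ALDH3A1 (-1.88) and ACTA2 (-1.88). MAFF and HEY1, at 3.44 and 2.32 CPM under 1% GFP, passed the minimum only through the GFP-rich class. KRT5, AKR1C2 and PLK1 passed it only through the cells under 1% GFP.

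**Figure D3:**
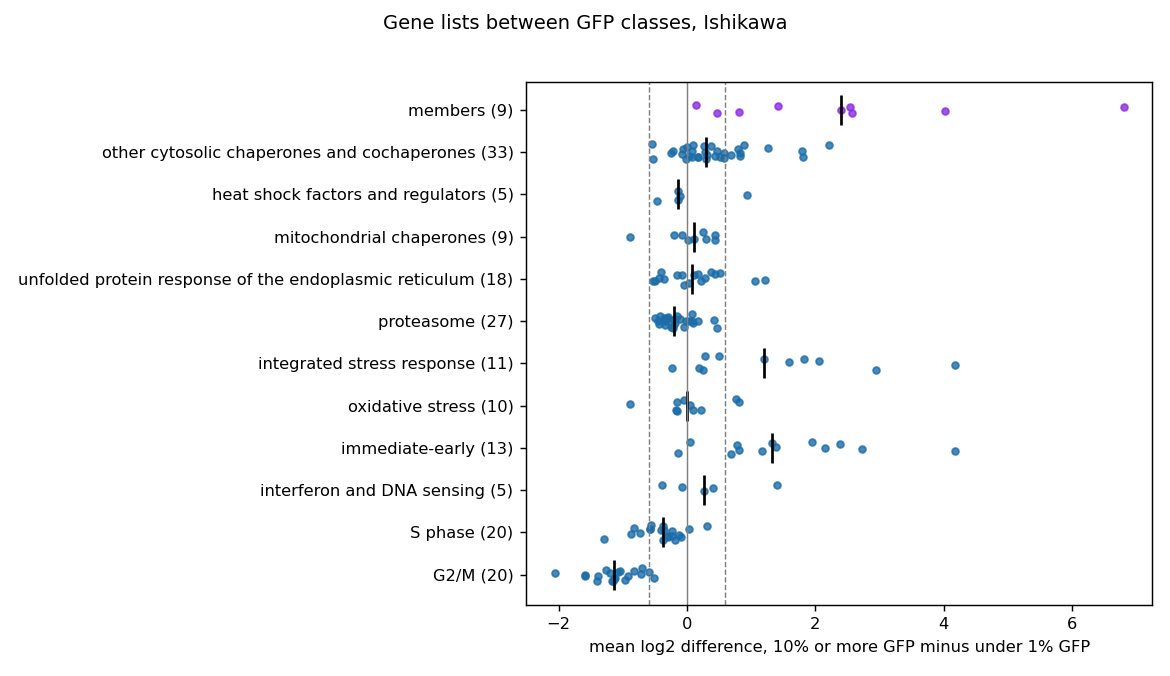
Mean log2 difference between cells with 10% or more GFP and cells under 1% GFP (1 point per gene past the minimum, number of genes in parentheses, black bars at the medians, dashed lines at 1.5-fold). The medians are 2.40 for the heat shock genes, 1.33 for immediate-early, 1.20 for integrated stress response and -1.13 for G2/M genes, with UMIs other than reporters as the total.

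Quality measures moved with GFP. From under 1% to 10% or more GFP, the median of other UMIs per cell went from 20934 to 13732, genes detected from 4610.5 to 3837, the mitochondrial share of other UMIs from 4.15% to 4.98%, and cells with a TOP2A or MKI67 UMI, a sign of division, from 72.9% to 53.5%. Their part in the result was not tested. In cells with no TOP2A or MKI67 UMI, HSPA6 stood at 161 CPM with 10% or more GFP against 1.37 CPM under 1%, and HSPA1B at 526 against 27.9 CPM. With cells under 4% mitochondrial UMIs only, the mean log2 differences of HSPA6 and HSPA1B were 7.13 and 4.13. Fibroblast markers summed to 25.6 to 33.1 CPM in GFP-rich cells and 20.6 to 31.5 CPM under 1%, and immune markers to at most 2.89 CPM in the former, with PTPRC, CD3E and MS4A1 at 0 in the GFP-rich class.

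Few of the genes passed 1.5-fold after E2. In all kept Ishikawa cells, 1 of the 9 genes past the minimum was lower at 2 h, 0 passed 1.5-fold at 4 h and 2 were lower at 8 h, while 1.45%, 1.26% and 1.28% of all 7885 genes passed it in either direction. HSPA6 stood at 29.7 CPM (27.1 to 32.6) at 0 h, 7.94 (6.96 to 9.01) at 2 h, 24.4 (22.3 to 26.7) at 4 h and 16.2 (14.8 to 17.7) at 8 h. Its log2 changes of -1.78 at 2 h and -0.83 at 8 h passed the fold. CRYAB stood at 20.8, 19.9, 22.9 and 8.13 CPM, and its change of -1.26 at 8 h passed. Without the 5 richest cells per pool and gene, the mean of HSPA6 was under the minimum, though its changes were -2.01 at 2 h and -0.83 at 8 h, and CRYAB was the 1 gene that passed. HSPA6 UMIs lay mostly in GFP-rich cells, whose share of the cells kept was lowest at 2 h (8.51%) and highest at 0 h (12.5%). Of CRYAB UMIs, GFP-rich cells held 31.7% over all time points, but 53.6% at 0 h and 12.7% at 8 h. Over all time points, 1% of the cells held 54.6% of the CRYAB UMIs. The part of these cell numbers in the changes was not tested.

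In T-47D, 0 of 9 genes passed 1.5-fold at 2, 4 or 8 h, while 1.64%, 1.69% and 3.06% of all 7440 genes did. HSPA6 gave 6, 4, 2 and 2 UMIs at 0, 2, 4 and 8 h, or 0.181, 0.151, 0.0675 and 0.155 CPM, so no change was detectable at this depth. With the mitochondrial limit of Ishikawa, 7%, in place of 20%, 2 genes passed in T-47D, HSPA1B and CRYAB. The median mitochondrial share of kept T-47D cells was 10.2%, so this limit left out most of them.

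**Figure D4:**
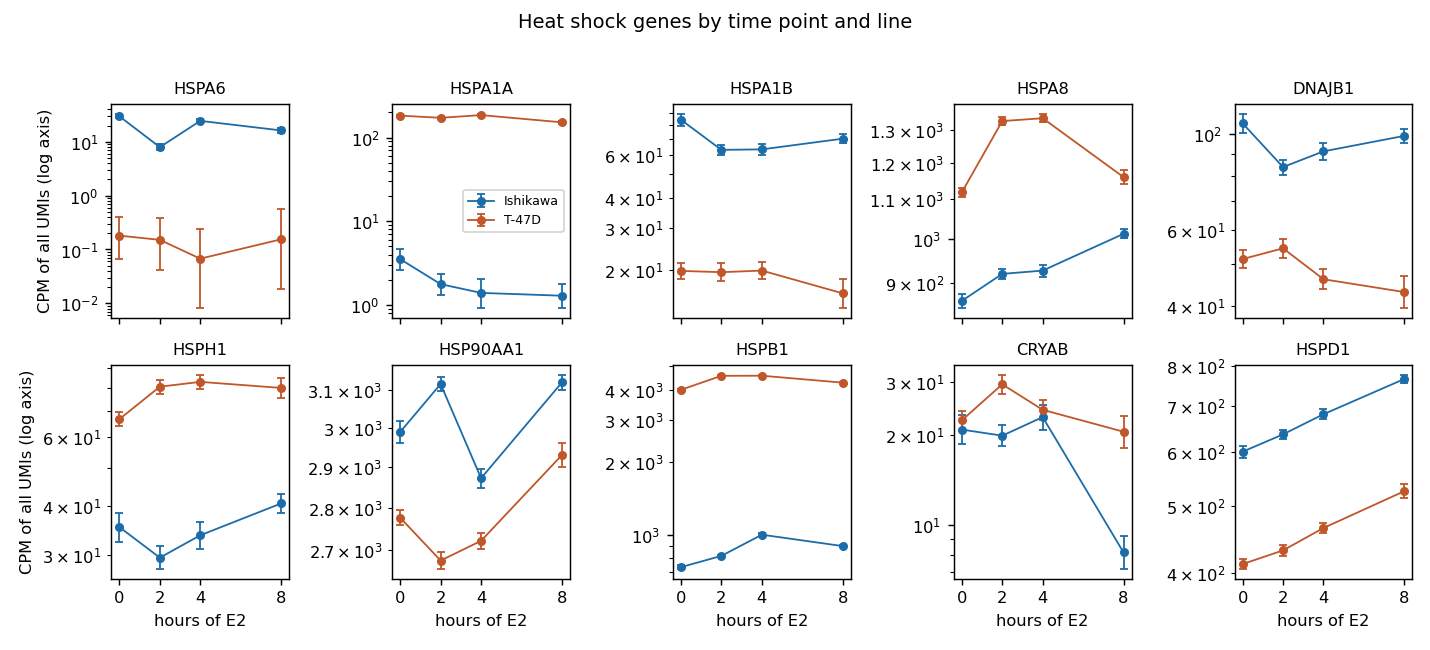
CPM of all UMIs (log axis, scaled to each gene) against hours of E2 in kept cells of Ishikawa (blue) and T-47D (orange), 1 culture per point, with 95% Poisson intervals. HSPA6 in Ishikawa dips from 29.7 to 7.94 CPM at 2 h, CRYAB in Ishikawa ends at 8.13 CPM, and HSPD1 goes up in both lines.

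Among Ishikawa cells under 1% GFP, 0 of the 8 genes past the minimum passed the fold at any time, while 1.61%, 1.9% and 1.82% of all 7900 genes did at 2, 4 and 8 h. HSPA6 differed there by -0.51, -0.54 and -0.68 from 1.67 CPM, at levels under the minimum. Within GFP-rich cells HSPA6 differed from 0 h by -1.55 at 2 h (-1.80 to -1.31), by -0.06 at 4 h (-0.26 to 0.13) and by -0.73 at 8 h (-0.93 to -0.55). HSPA1B there differed by -0.35, -0.38 and -0.32, short of 1.5-fold. CRYAB there differed by -0.43, -0.51 and -3.22, the last with an interval of -3.91 to -2.76. That interval covers counting error only. It sets 32 UMIs in 7.98% of GFP-rich cells at 8 h against 171 UMIs in 14.4% at 0 h. The differences of all 3 genes in GFP-rich cells set 94 to 163 cells of 1 culture against 97 of another.

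**Figure D5:**
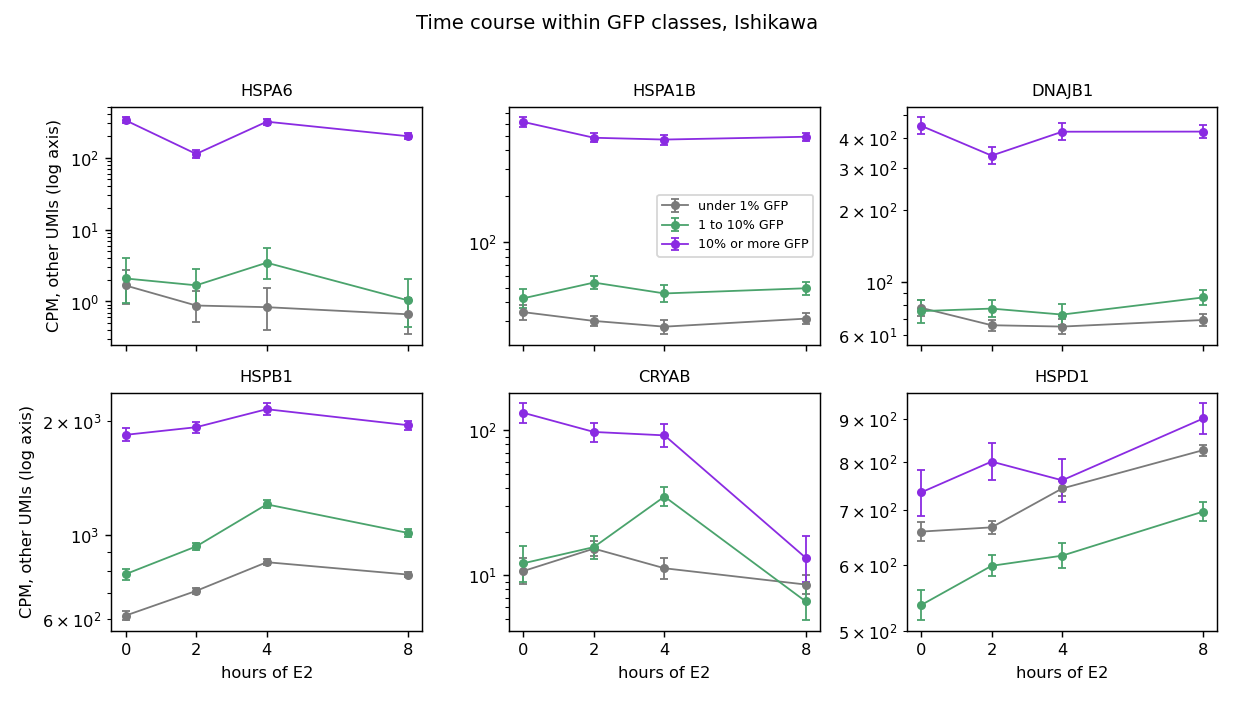
CPM of UMIs other than reporters (log axis, scaled to each gene) against hours of E2 for 6 of the genes in the 3 GFP classes of Ishikawa, 1 pool per point, with 95% Poisson intervals. The class with 10% or more GFP stays above the others at every time for HSPA6, HSPA1B, DNAJB1 and HSPB1, and its CRYAB level drops from 131 to 13.2 CPM at 8 h.

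Smaller shifts shared by the lines were seen in abundant genes. HSPD1 stood at 600, 636, 680 and 766 CPM in Ishikawa and at 412, 431, 465 and 526 CPM in T-47D at 0, 2, 4 and 8 h, so each later time point was above the one before in both lines. At 8 h its log2 change was 0.35 in Ishikawa and 0.35 in T-47D, short of 1.5-fold, and it was above 0 h under every alternative run. HSPA8 was above 0 h at every later time in both lines, by 0.09, 0.11 and 0.23 in Ishikawa and by 0.25, 0.26 and 0.05 in T-47D, the last at -0.15 with the 7% mitochondrial limit. In Ishikawa cells under 1% GFP it was level with 0 h at 2 h, at -0.01. HSPB1 was also above 0 h throughout, by at most 0.45 in Ishikawa and 0.19 in T-47D, both at 4 h, though at 8 h in T-47D the 7% limit gave -0.01. HSPH1 was above 0 h in T-47D, by 0.27, 0.31 and 0.26, while in Ishikawa it differed by -0.25, -0.07 and 0.20. In Ishikawa cells under 1% GFP it differed by -0.06, 0.04 and 0.26. In all kept cells the changes of HSPD1, HSPA8 and HSPB1 exceeded counting error and none passed 1.5-fold, and the spread between cultures is not known.

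Among the other cytosolic chaperones and cochaperones, 0 of 33 passed in Ishikawa at any time and 2 of 32 were higher in T-47D at each later time, against shares of all genes of 1.64%, 1.69% and 3.06% in either direction in T-47D and 1.45%, 1.26% and 1.28% in Ishikawa. These were HSPB8, a small heat shock protein, at 1.18, 1.44 and 1.51, and FKBP4, an HSP90 cochaperone of steroid receptors, at 0.70, 1.00 and 1.24. In T-47D, XBP1 was the 1 gene of 18 higher in the unfolded protein response list, at 1.24, 1.01 and 1.04, while 0 of 17 passed in Ishikawa.

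The lines differed in the inducible HSP70 genes. Each line was a separate library, so line and library cannot be told apart. At 0 h Ishikawa held 3.53 CPM of HSPA1A and 84.5 CPM of HSPA1B, and T-47D held 183 and 19.8 CPM. GFP-rich cells held 61.9% of the HSPA1B and 94.7% of the HSPA6 UMIs of Ishikawa at 0 h, and in cells under 1% GFP these genes stood at 34.5 and 1.67 CPM of other UMIs. The uncertain split between these genes applies to both lines. HSPB1 stood at 736 CPM in Ishikawa and 3990 CPM in T-47D, and HSPH1 at 35.3 and 66.6 CPM. DNAJB1 was the reverse, at 106 and 51.4 CPM. After thinning to 10000 UMIs, 4.87% of Ishikawa cells at 0 h had an HSPA6 UMI and 0.197% of T-47D cells (6.44% and 0.328% without thinning), with median depths before thinning of 19122 and 20677 UMIs. Over the 4 time points the ranges of CRYAB and HSP90AA1 overlapped between the lines, and those of the other 8 genes did not. HSPA8, for instance, spanned 862 to 1013 CPM in Ishikawa and 1119 to 1337 CPM in T-47D. The share of all genes with ranges apart was not counted, so this is not read as a trait of the heat shock genes. Levels of different genes are not compared here, since counts were not divided by length.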

How the data were processed

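The deposited files were UMI counts per gene and cell, made by the authors with Cell Ranger 3.1.0 on hg38, per the submitters' processing notes, and the authors' MULTI-seq calls of each barcode. A barcode with a single time point was kept if it met the limits of the study. For Ishikawa these were UMIs of 8500 to 35000, genes of 2700 to 6000 and a mitochondrial share below 7%, and for T-47D 7500 to 40000, 1500 to 6000 and 20%. MULTI-seq doublet calls were left out, and no other doublet caller was run, so pairs from 1 culture remain. UMIs were summed per pool and given as CPM with exact 95% Poisson intervals. Shares of cells have exact Clopper-Pearson intervals, after thinning to 10000 UMIs, or 5000 other than reporters for GFP classes. Log2 values used a pseudocount of 1 CPM. Calls needed a mean of 10 CPM and 1.5-fold. With 1 culture per pool no test was run. The members and gene lists were chosen with earlier results of these data known. Besides the members, genes were named where they led a list at either end, were most like HSPA6 (5), or lay at an extreme between GFP classes (5 each way). HSPA14 has 2 feature rows and was left out. Alternatives covered scaling, filters, class limits, minimum and fold. Scripts were tested on simulated data. Python 3.11.15 (numpy 2.4.6, pandas 2.3.3, scipy 1.17.1, matplotlib 3.10.9) and R 4.3.3 with edgeR 4.0.16 (scaling factors alone) were used. Promoter sequences are from RefSeq.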

Additional observations from a re-analysis of the deposited data

Results flagged for a closer look

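After 2 h of E2, HSPH1 went opposite ways in the lines, with log2 changes of -0.25 in Ishikawa and 0.27 in T-47D. HSP90AA1 did so too at 2 h, by 0.060 in Ishikawa and -0.054 in T-47D. In Ishikawa cells under 1%, from 1 to 10% and at 10% or more GFP, HSPH1 differed at 2 h by -0.06, 0.31 and -0.52. HSP90AA1 differed there by 0.02, 0.21 and 0.01. Under 1% GFP both were within counting error of 0 h. Within Ishikawa, HSP90AA1 at 8 h differed from 0 h by 0.076 in cells under 1% GFP and by -0.16 in cells with 10% or more. CRYAB at 2 h differed by 0.48 in cells under 1% GFP and by -0.43 in cells with 10% or more. These differences were not tested, since each value comes from 1 culture.

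Barcodes under 2000 UMIs, which were not among the kept cells, held some of the genes above the level of the vehicle cells. In Ishikawa HSPA6 stood at 47.6 CPM and HSPH1 at 61.6 CPM in 670 such barcodes. In T-47D HSP90AA1 stood at 4597 CPM and HSPB1 at 6003 CPM in 2784 such barcodes.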

How the results depend on the processing

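Time points and lines could not be compared in pairs, because each line and time point was 1 culture. The GFP classes were compared within each of the 4 cultures, so those differences are matched by culture. The count of genes past 1.5-fold in cells with 10% or more GFP, 7, ran from 5 to 8 over the alternatives. The count after E2 in Ishikawa, 2, was 0 with a minimum of 50 CPM, 6 with a lower fold threshold, 0 in cells under 1% GFP, and 1 without the 5 highest cells per pool and gene. That alternative and the minimum in cells under 1% GFP were chosen after seeing the data. In T-47D the count of 0 was 2 with the lower fold threshold (CRYAB and HSPD1) and 2 with a mitochondrial limit of 7% (HSPA1B and CRYAB). The cause was not tested. Among Ishikawa calls, HSPA6 at 2 h ran from -2.76 to -0.51 and at 8 h from -1.29 to -0.22, and CRYAB at 8 h from -1.42 to -0.28. For GFP classes, 93 of 153 values, 1 for each of 9 genes under each of 17 alternatives, moved beyond counting error. Intervals cover counting error only, so the spread between cultures is not known.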
